A study of Homo sapiens with 12 samples.

Results

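The 9 genes described here stand for the NRF2 antioxidant response: NFE2L2 (the gene of the transcription factor NRF2), its inhibitor KEAP1, and the NRF2 target genes GCLC, GCLM, TXNRD1, SRXN1, NQO1, HMOX1 and OSGIN1. They were chosen by name, with earlier results of these data known. All 9 were found in the table of each cell line, out of 29657 genes listed for SCC15 and 31055 for SCC25. All 9 passed the filter on low values, a mean of at least 10 normalized counts, which left 15902 and 16539 genes. SCC15 and SCC25 are established squamous cell carcinoma lines of the oral cavity, both labelled wild type. Each line was treated for 24 h with squamocin, an annonaceous acetogenin (the label reads ACGs) used at 10 µg/mL per the study's methods, or with DMSO, the vehicle. Each of the 4 groups held 3 RNA-seq libraries, 12 in all, with 16665563 to 22748845 assigned reads per library. The labels do not say that the 3 libraries of a group came from separate cultures, so the p-values measure only the spread between these libraries, which may be technical, and each background is represented by a single line.

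NRF2 is a transcription factor that is made constantly and destroyed quickly. KEAP1 holds it to a ubiquitin ligase built on CUL3, and reactive electrophiles or oxidants modify cysteines of KEAP1, so that NRF2 escapes destruction, enters the nucleus, pairs with a small MAF protein and binds antioxidant response elements (AREs) near genes for glutathione synthesis, thioredoxin reduction, quinone reduction, haem breakdown and NADPH supply. The control acts mainly on the protein, so the level of the NFE2L2 transcript and the activity of NRF2 are separate quantities, and only transcripts were measured here. In squamous carcinoma the pathway is known for being switched on in some tumours by mutations of NFE2L2, KEAP1 or CUL3.

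Sequences that match the ARE by their letters are shown first. Binding of NRF2 to them was not tested. The ARE core searched was TGACNNNGC on both strands, in the 1000 bases upstream of each RefSeq start site (GRCh38.p14), and the stricter form TGACTCAGC, which is one spelling of the core and so overlaps it, was counted separately. RefSeq start sites were on hand for 8 of the 9 genes, all but HMOX1, with 11 start sites in all. At least 1 start site of GCLC, GCLM, TXNRD1, NQO1, OSGIN1 and KEAP1 had a core, while the start sites of NFE2L2 and SRXN1 had no match of these letters in that window. The core stood upstream of 31.9% of all 35116 start sites and the stricter form upstream of 1.42%. These shares are by single start site, and a gene with more than 1 start site has more chances of a match, so the list by gene does not compare with them directly. Each match is given 5′ to 3′ on its own strand with 10 bases on either side and the 9 bases of the motif in capitals, together with its place in hg38 and in the GENCODE 44 annotation.
NQO1, chr16:69726997-69727025, minus strand, 455 bases upstream, outside NQO1 and in an exon of the divergent transcript NQO1-DT, the only one with the stricter form: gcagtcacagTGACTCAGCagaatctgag
GCLM, chr1:93909446-93909474, plus strand, 34 bases upstream, with 1 of the 9 bases of the core in a UTR exon of GCLM and the rest outside the gene: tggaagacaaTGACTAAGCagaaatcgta
GCLC, chr6:53545953-53545981, plus strand, 870 bases upstream, in an intron of another GCLC transcript: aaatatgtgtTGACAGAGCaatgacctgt
TXNRD1, chr12:104215670-104215698, plus strand, 99 bases upstream of the first start site, outside the gene: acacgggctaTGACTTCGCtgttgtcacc
TXNRD1, chr12:104286920-104286948, minus strand, 102 bases upstream of the second start site, in a UTR exon of another TXNRD1 transcript: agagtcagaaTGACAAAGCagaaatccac
OSGIN1, chr16:83952673-83952701, plus strand, 557 bases upstream, in an intron of another OSGIN1 transcript: agacaatctgTGACTTGGCcccagttttc
KEAP1, chr19:10502784-10502812, plus strand, 31 bases upstream of 1 of its 2 start sites, in a UTR exon of another KEAP1 transcript: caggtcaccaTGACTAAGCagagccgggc
KEAP1, chr19:10502807-10502835, minus strand, 54 bases upstream of the same start site, in a UTR exon of another KEAP1 transcript: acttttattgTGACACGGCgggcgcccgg
The GCLM core and 1 of the 2 KEAP1 cores have the same 9 letters, TGACTAAGC, and the other cores differ in their 3 middle bases.

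Some properties of the libraries bear on every value. Normalized counts are reads divided by 1 size factor per library, set by the authors separately for each line. Under these factors the median log2 fold change of all genes was 0.01 in SCC15 and -0.01 in SCC25, whereas scaling the libraries to equal totals moved it to -0.50 and -0.23. Squamocin replicate 3 of SCC15 stood apart from its 2 partners, with a chi-square per degree of freedom of 56.8 and 64.1 against 1.67 to 9.95 for all other replicate pairs, so members were also tested without it. Their log2 fold changes in SCC15 were then 0.54 for NFE2L2, 0.17 for KEAP1, 1.07 for GCLM, 0.79 for GCLC, 0.66 for TXNRD1, 0.69 for NQO1, 1.40 for HMOX1 and 1.30 for OSGIN1, all called, and 0.36 for SRXN1 (limma adjusted p = 0.0609). That fit called 38.0% of all genes higher and 37.6% lower, against 30.9% and 30.0% with all libraries. Of 10 squamous markers, 9 in SCC15 and all 10 in SCC25 had a mean of at least 10, with KRT17 highest in both. Their sum ran from 115980 to 122120 normalized counts in DMSO and from 211290 to 364450 with squamocin in SCC15, and from 47478 to 48011 and from 64953 to 68939 in SCC25. Over both treatments KRT17 alone had a mean of 186280 in SCC15 and 12217 in SCC25, so the SCC15 sum is mainly that of KRT17. The sums do not show the direction of the other squamous markers. Of 6 immune markers, 2 had a mean of at least 10 in each line, and their sum went from a range of 335 to 427 normalized counts in DMSO to 19.1 to 32.2 with squamocin in SCC25, and ran from 499 to 541 and from 320 to 506 in SCC15. CD14 was the highest of them in both lines, while LYZ in SCC15 and PTPRC in SCC25 were among those at 0 or not listed. The summed endothelial markers, 1 of 5 in SCC15 and 3 of 5 in SCC25 with a mean of at least 10, ran from 164 to 181 in DMSO and from 66.1 to 77.5 with squamocin in SCC15, and from 235 to 296 and from 19.8 to 37.7 in SCC25, and CDH5 and KDR were at 0 or not listed in SCC15. The summed fibroblast markers, 4 of 6 and 3 of 6, ran from 708 to 784 and from 482 to 486 in SCC15, and from 766 to 810 and from 1073 to 1228 in SCC25. The part of these markers in the results below was not tested.

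With squamocin, 7 of the 9 genes rose in both lines under the authors' scaling: NFE2L2, GCLC, GCLM, TXNRD1, NQO1, HMOX1 and OSGIN1. HMOX1, OSGIN1 and GCLM had the largest folds in both, while SRXN1 and KEAP1 parted from the rest, being lower in SCC25 and not called in SCC15. SCC15 had 7 members called higher and 0 lower by limma with a Benjamini-Hochberg adjusted p under 0.05, against 30.9% of all genes tested that were called higher and 30.0% lower. In SCC25, 7 were called higher and 2 lower, against 38.3% and 38.5% of all genes. The same 7 genes were higher in both lines, against 22.1% of the 14454 genes tested in SCC15 and SCC25. The 9 genes were chosen with earlier results of these data known, so counts beside these shares are a description and not a test of the set. For the 9 genes, median log2 fold changes were 0.80 (SCC15) and 0.63 (SCC25). With libraries scaled to equal totals, 5 members were called higher in SCC15, without NFE2L2 and TXNRD1, against 14.6% of all genes called higher and 51.0% lower under that scaling. The calls in SCC25 were the same 9, against 30.3% higher and 47.6% lower. A scaling shifts every gene of a library by the same amount, so these data do not say which of the scalings gives the true zero. In bulk RNA, a change in the share of cells that express a gene and a change in the amount per cell cannot be told apart.

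**Figure D1:**
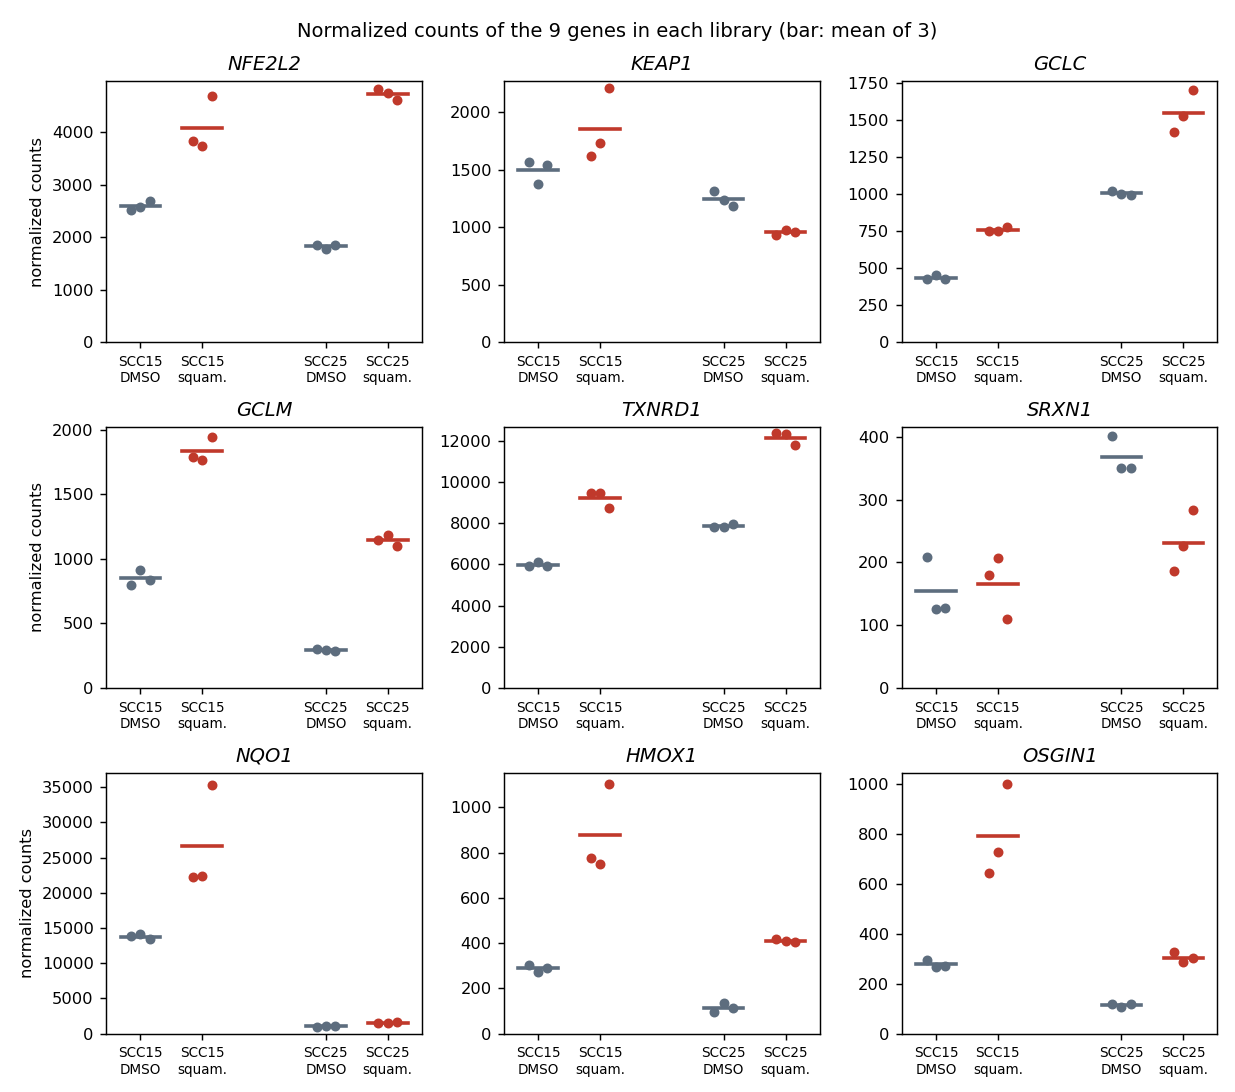
Normalized counts (y axis, from 0) of the 9 genes in each library, with 3 points for DMSO and 3 for squamocin (squam.) in SCC15 and SCC25 and a bar at the mean of the 3. The squamocin points lie above the DMSO points in both lines for 7 genes, below them for KEAP1 and SRXN1 in SCC25, and among them for SRXN1 in SCC15. The lines were normalized separately, so heights compare within a line.

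The pair at the head of the pathway was taken first. NFE2L2 (ENSG00000116044, chromosome 2, 177227595 to 177392697, minus strand, GRCh38) stood at 2525, 2581 and 2695 normalized counts in the DMSO libraries of SCC15 and at 3839, 3739 and 4690 in the squamocin libraries. All squamocin libraries were above all DMSO libraries, and the third was the highest. The mean rose 1.57-fold, from 2600 ± 86.5 to 4089 ± 522 (SD, n = 3), or by 0.65 in log2 units (SE 0.11, limma adjusted p = 0.00168), which became 0.15 (adjusted p = 0.116) with equal library totals. In SCC25 NFE2L2 rose 2.59-fold, from 1850, 1774 and 1861 normalized counts in DMSO to 4825, 4752 and 4622 with squamocin. The groups lay far apart there, with a log2 fold change of 1.37 (SE 0.04, limma adjusted p = 2.29e-11), and 1.16 with equal totals. The exon model of NFE2L2 shares 3509 bases with HNRNPA3 on the opposite strand, and the strand setting of the counting is not given in the sources used here, so some reads of the 2 genes may not be told apart. HNRNPA3 itself went from a mean of 7914 to 12531 normalized counts in SCC15 and from 7165 to 9598 in SCC25.

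KEAP1, the sensor and inhibitor (ENSG00000079999, chromosome 19, 10486120 to 10503741, minus strand), did not follow NFE2L2. In SCC25 it stood at 1312, 1238 and 1184 normalized counts in DMSO and at 935, 976 and 958 with squamocin. Every squamocin library was below every DMSO library, and the mean fell to 0.769 of the DMSO level, from 1245 ± 64.1 to 957 ± 20.5 (SD, n = 3). The log2 fold change was -0.38 (SE 0.05, limma adjusted p = 3.87e-05). In SCC15 it stood at 1565, 1377 and 1541 in DMSO and at 1614, 1735 and 2206 with squamocin. The groups did not overlap but nearly touched, and the log2 fold change of 0.30 (95% confidence interval -0.01 to 0.60) did not pass the threshold (limma adjusted p = 0.0813). Its sign rested on the scaling, with -0.20 under equal totals, and it was called at 0.39 without squamocin replicate 1 and at 0.17 without squamocin replicate 3.

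The ratio of NFE2L2 to KEAP1 within a library does not depend on the scaling. In SCC25 it was 1.41, 1.43 and 1.57 in the DMSO libraries and 5.16, 4.87 and 4.82 in the squamocin libraries, a mean of 1.47 ± 0.0872 against 4.95 ± 0.182 (SD, n = 3). In SCC15 it was 1.61, 1.87 and 1.75 against 2.38, 2.16 and 2.13. The squamocin libraries had the higher ratio in both lines without overlap, so the transcripts of the factor and of its inhibitor changed unequally, with the wider gap in SCC25.

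Glutathione synthesis begins with glutamate-cysteine ligase, whose catalytic subunit is GCLC and whose regulatory subunit is GCLM. GCLM (ENSG00000023909, chromosome 1, 93885205 to 93909456, minus strand) stood at 302, 291 and 289 normalized counts in the DMSO libraries of SCC25 and at 1150, 1186 and 1099 with squamocin. It rose 3.89-fold there, the largest fold of the 9 genes in that line, with a log2 fold change of 1.96 (SE 0.06, limma adjusted p = 3.44e-11). In SCC15 it stood at 797, 917 and 836 in DMSO and at 1791, 1767 and 1941 with squamocin, a 2.16-fold rise (log2 fold change 1.11, SE 0.09, limma adjusted p = 7.91e-05). The groups were well apart in both lines, and GCLM stayed called with equal totals, at 0.61 in SCC15 and 1.75 in SCC25.

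GCLC (ENSG00000001084, chromosome 6, 53497341 to 53616970, minus strand) rose less. It stood at 428, 451 and 423 normalized counts in DMSO and at 752, 748 and 776 with squamocin in SCC15, a 1.75-fold rise with a log2 fold change of 0.80 (SE 0.08, limma adjusted p = 0.000202), and 0.31 with equal totals (adjusted p = 0.0247). In SCC25 it stood at 1021, 999 and 991 against 1420, 1527 and 1699, a 1.54-fold rise with a log2 fold change of 0.62 (SE 0.06, limma adjusted p = 1.59e-06). The 2 subunits thus changed unequally within a library. The ratio of GCLC to GCLM in normalized counts was 3.38, 3.43 and 3.42 in the DMSO libraries of SCC25 and 1.23, 1.29 and 1.55 with squamocin, and in SCC15 it was 0.537, 0.492 and 0.506 against 0.420, 0.423 and 0.400. The squamocin libraries had the lower ratio in both lines, again without overlap. GCLC shares 305 exon bases with the antisense gene GCLC-AS1, which had a mean of at most 37.3 normalized counts in any group.

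**Figure D2:**
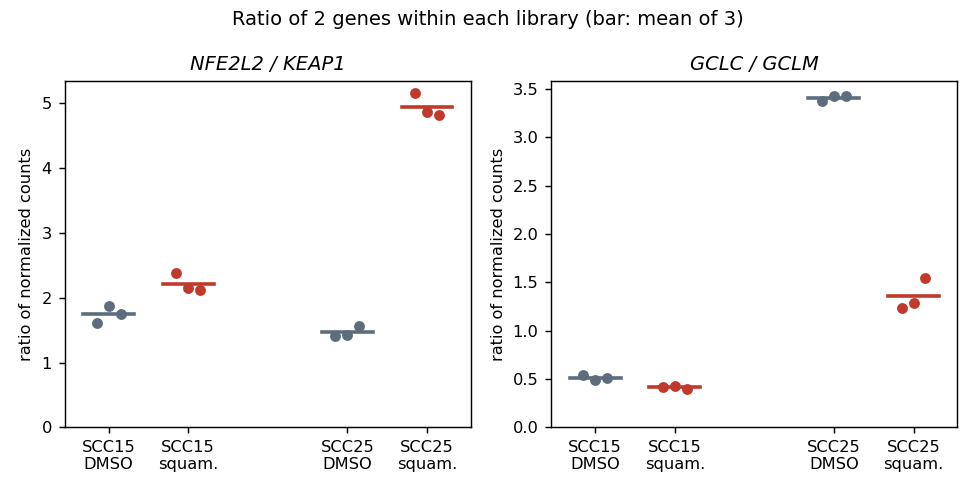
Ratio of normalized counts of NFE2L2 to KEAP1 (left) and of GCLC to GCLM (right) in each library (points) with the mean of 3 (bar), y axis from 0. Squamocin (squam.) lies above DMSO on the left, with 4.82 to 5.16 against 1.41 to 1.57 in SCC25, and below it on the right.

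TXNRD1 and SRXN1 serve the thioredoxin system: TXNRD1, thioredoxin reductase, passes electrons from NADPH to thioredoxin, and SRXN1, sulfiredoxin, repairs over-oxidised peroxiredoxins. TXNRD1 (ENSG00000198431, chromosome 12, 104215779 to 104350305, plus strand) stood at 7833, 7802 and 7939 normalized counts in DMSO and at 12353, 12306 and 11784 with squamocin in SCC25. In SCC15 it stood at 5896, 6091 and 5926 against 9454, 9464 and 8756. The groups did not overlap in either line and the folds were nearly alike, 1.55-fold in both, with log2 fold changes of 0.63 in SCC25 (SE 0.04, limma adjusted p = 6.99e-09) and 0.63 in SCC15 (SE 0.09, adjusted p = 0.000704). With equal totals SCC25 kept its call at 0.42, while SCC15 was at 0.13 (adjusted p = 0.348).

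SRXN1 (ENSG00000271303, chromosome 20, 646615 to 653370, minus strand) was the one target that went down. In SCC25 it stood at 401, 350 and 351 normalized counts in DMSO and at 186, 226 and 283 with squamocin, so that all squamocin libraries were below all DMSO libraries. The mean fell to 0.630 of the DMSO level, with a log2 fold change of -0.68 (SE 0.13, limma adjusted p = 0.000454). In SCC15 it stood at 209, 127 and 127 in DMSO and at 180, 206 and 109 with squamocin. These groups overlapped, and the log2 fold change of 0.09 had a 95% confidence interval of -0.58 to 0.76 (limma adjusted p = 0.804), which leaves a change of either sign possible. SRXN1 shares 2292 exon bases with ENSG00000270299 on the same strand, a gene at a mean of at most 1.12 normalized counts in any group.

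NQO1 reduces quinones by 2 electrons at a time, which bypasses the reactive semiquinone. NQO1 (ENSG00000181019, chromosome 16, 69706996 to 69726951, minus strand) was abundant in SCC15, at 13804, 14131 and 13424 normalized counts in DMSO and at 22173, 22352 and 35325 with squamocin. All squamocin libraries were above all DMSO libraries, and replicate 3 stood far above the other two. The 1.93-fold rise, a log2 fold change of 0.91 (SE 0.19, limma adjusted p = 0.00447), was 0.69 without replicate 3 and 0.42 (adjusted p = 0.0224) with equal totals. In SCC25 NQO1 stood at 1020, 1091 and 1114 in DMSO and at 1516, 1492 and 1649 with squamocin, a 1.44-fold rise with a log2 fold change of 0.53 (SE 0.06, limma adjusted p = 2.52e-06). That was the smallest called rise of the 9 genes in SCC25.

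HMOX1, inducible haem oxygenase, opens haem into biliverdin, iron and carbon monoxide. HMOX1 (ENSG00000100292, chromosome 22, 35380361 to 35394214, plus strand) stood at 305, 271 and 289 normalized counts in the DMSO libraries of SCC15 and at 776, 751 and 1102 with squamocin. It rose 3.04-fold there, with a log2 fold change of 1.58 (SE 0.16, limma adjusted p = 0.000178), the largest of the 9 genes in SCC15. In SCC25 it stood at 96.7, 134 and 113 in DMSO and at 419, 410 and 405 with squamocin, a 3.59-fold rise with a log2 fold change of 1.85 (SE 0.12, limma adjusted p = 1.67e-08). Every squamocin library exceeded every DMSO library, and the calls held with equal totals, at 1.08 and 1.64. The constitutive paralog HMOX2 itself was not called in SCC15 (-0.27, adjusted p = 0.326) and rose by 0.27 in SCC25. With equal totals HMOX2 was called lower in SCC15, at -0.77 (limma adjusted p = 0.00579), and was at 0.06 with no call in SCC25. The HMOX1 to HMOX2 ratio in normalized counts went from 0.380 ± 0.0307 to 1.38 ± 0.174 in SCC15 and from 0.127 ± 0.0148 to 0.379 ± 0.00774 in SCC25 (SD, n = 3).

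OSGIN1, an inhibitor of growth induced by oxidative stress, rose in both lines. OSGIN1 (ENSG00000140961, chromosome 16, 83948282 to 83966332, plus strand) stood at 294, 268 and 271 normalized counts in DMSO and at 641, 728 and 999 with squamocin in SCC15. It stood at 117, 107 and 120 against 325, 285 and 303 in SCC25. The groups lay apart in both, with a 2.84-fold rise in SCC15 (log2 fold change 1.48, SE 0.16, limma adjusted p = 0.000282) and a 2.65-fold rise in SCC25 (1.40, SE 0.10, adjusted p = 7.13e-08). OSGIN1 shares 457 exon bases with MLYCD on the same strand, which went the other way, from a mean of 378 to 156 normalized counts in SCC15 and from 184 to 74.4 in SCC25.

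Counted by groups that do not overlap, 8 of the 9 genes separated squamocin from DMSO in SCC15, all 8 upward, against 35.7% of all genes tested that did so upward and 34.9% downward. In SCC25 all 9 separated, 7 upward and 2 downward, against 39.4% and 39.6%. An exact permutation test of 3 libraries against 3, two-sided, cannot go below p = 0.1, and all these genes reached that value, while SRXN1 in SCC15 had p = 1.

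**Figure D3:**
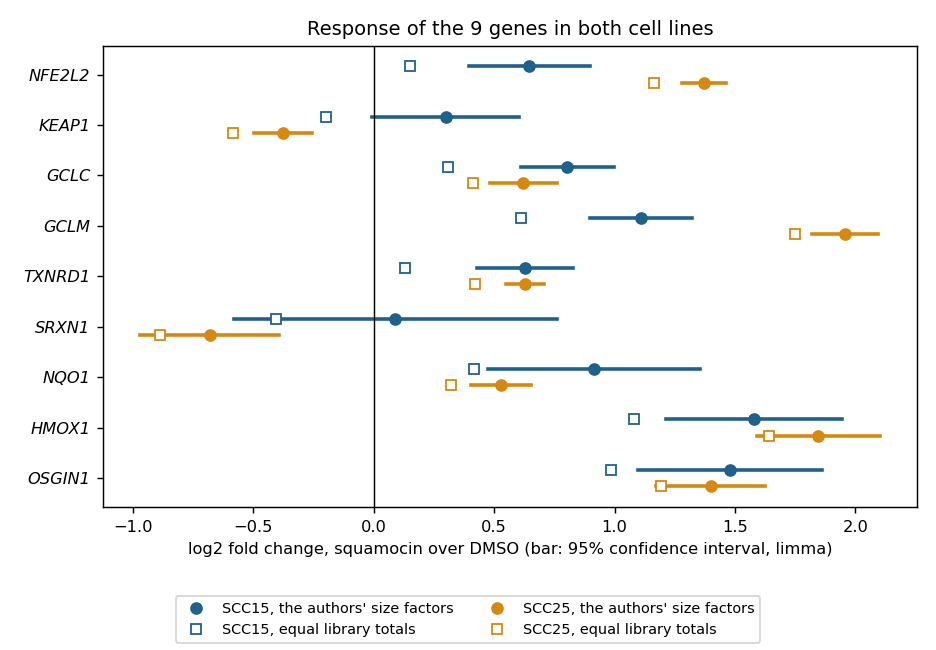
Log2 fold change of squamocin over DMSO (x axis) for each of the 9 genes in SCC15 (blue) and SCC25 (orange), as filled points with 95% confidence intervals under the authors' size factors and as open squares with libraries scaled to equal totals. GCLM, NFE2L2 and KEAP1 have intervals that do not overlap between the lines, and the squares lie to the left of the points, by more in SCC15.

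The difference between the lines was tested directly, as the log2 fold change in SCC15 minus that in SCC25, and was called for 3 of the 9 genes, against 52.2% of all genes tested. GCLM rose by 0.85 less in SCC15 (difference -0.85, 95% confidence interval -1.07 to -0.62, limma adjusted p = 2.61e-05) and NFE2L2 by 0.73 less (-0.73, -0.98 to -0.48, adjusted p = 0.000194). KEAP1 differed the other way (0.68, 0.36 to 0.99, adjusted p = 0.00174). TXNRD1 had the closest match, with a difference of -0.001 and an interval of -0.20 to 0.19. For the other genes the difference was not called, with intervals of -0.04 to 0.41 for GCLC, -0.05 to 0.82 for NQO1, -0.72 to 0.18 for HMOX1, -0.34 to 0.51 for OSGIN1 and 0.02 to 1.52 for SRXN1, whose adjusted p was 0.0780. Without squamocin replicate 3 of SCC15, 6 genes differed: HMOX1 at -0.44, NQO1 at 0.16 and SRXN1 at 1.04 joined the 3. In that fit 65.9% of all genes differed, so the larger count of members came with a larger share of all genes.

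Levels were compared between genes per length, as TPM, the recovered reads per base of GENCODE 44 exon scaled to the same sum in every library. The length joins the exons of all transcripts of a gene, 14975 bases for NFE2L2 and 3573 for KEAP1. Ranks between genes thus depend on this exon model, and a gene is understated where its main transcript is much shorter. In normalized counts NFE2L2 stood above KEAP1 in every group. In the DMSO libraries of SCC15 the order was NQO1 (1173 ± 26.0 TPM, SD, n = 3), TXNRD1 (225 ± 3.73), KEAP1 (106 ± 7.40), NFE2L2 (43.9 ± 1.64), GCLM (39.6 ± 2.83), HMOX1 (31.6 ± 1.88), SRXN1 (15.4 ± 4.70), GCLC (12.7 ± 0.409) and OSGIN1 (12.6 ± 0.637). The ranges of the neighbours NFE2L2 and GCLM overlapped, as did those of SRXN1, GCLC and OSGIN1 in turn. In SCC25 the order in DMSO was TXNRD1 (220 ± 2.03 TPM), NQO1 (68.0 ± 3.17), KEAP1 (65.4 ± 3.31), SRXN1 (27.3 ± 2.16), NFE2L2 (22.9 ± 0.574), GCLC (21.9 ± 0.320), GCLM (10.2 ± 0.226), HMOX1 (9.34 ± 1.53) and OSGIN1 (3.88 ± 0.231), where NQO1 and KEAP1 overlapped and so did GCLM and HMOX1. The lines thus began from different levels.

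NQO1 was 17.3 times as high in TPM in DMSO-treated SCC15 as in SCC25, GCLM 3.89, HMOX1 3.39, OSGIN1 3.26, NFE2L2 1.92, KEAP1 1.62 and TXNRD1 1.02 times. GCLC and SRXN1 were the other way round, 1.72 and 1.77 times as high in SCC25. These ratios are a description with no test, since the tables were made separately. With squamocin, NFE2L2 moved from rank 5 to rank 3 in SCC25 under the same exon model, at 50.5 ± 0.774 TPM, ahead of KEAP1 at 42.7 ± 1.04. SRXN1 dropped from rank 4 to rank 8, at 14.6 ± 3.34 TPM. In SCC15, HMOX1 moved from rank 6 to rank 4, at 58.7 ± 2.17 TPM, though its range overlapped that of GCLM. On the TPM scale, NFE2L2 in SCC15 was 43.9 ± 1.64 TPM in DMSO and 42.6 ± 2.89 with squamocin, TXNRD1 was 225 ± 3.73 and 219 ± 47.0, and GCLC was 12.7 ± 0.409 and 13.9 ± 2.22 with ranges that overlapped, in contrast to their rise in normalized counts. KEAP1 in SCC15 was 106 ± 7.40 and 80.5 ± 2.99 TPM. Every squamocin library was below every DMSO library there, the reverse of the order of KEAP1 in normalized counts.

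**Figure D4:**
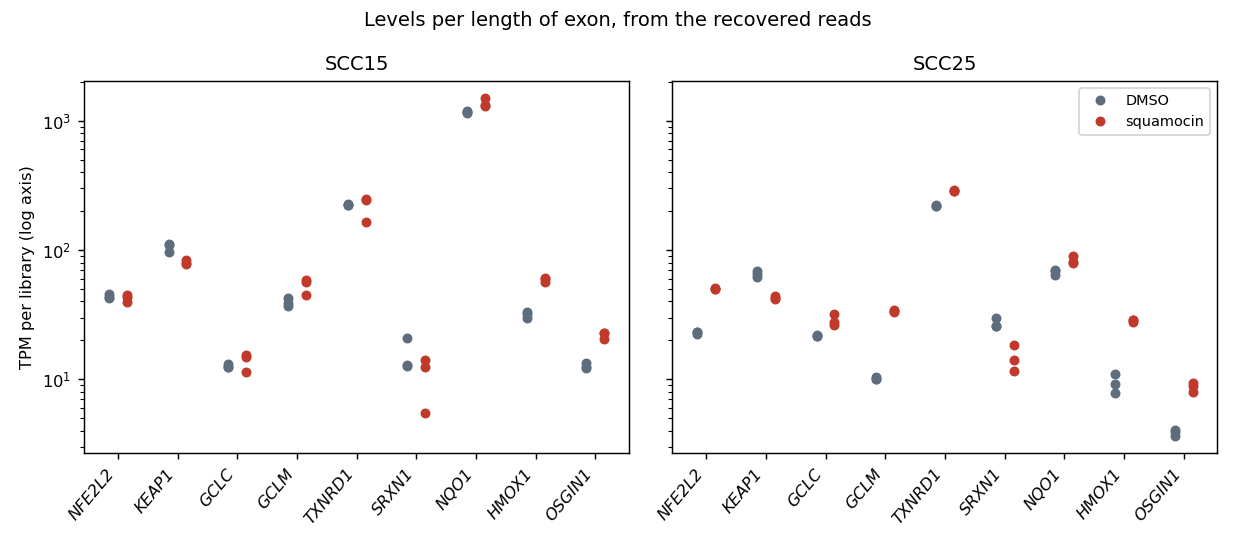
TPM of the 9 genes in each library (log axis) in SCC15 (left) and SCC25 (right), DMSO in grey and squamocin in red. NQO1 exceeds 1000 TPM in every SCC15 library and stays under 100 in every SCC25 library. HMOX1 and OSGIN1 are higher with squamocin in both lines, and the NFE2L2 points of the 2 treatments overlap in SCC15.

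Across the 12 libraries, with each line centred on its own mean, NFE2L2 was most like LRRFIP2 (Pearson r = 0.9987), SDCBP (0.9976) and OSGIN2 (0.9971), and HMOX1 was most like GADD45B (0.9941), HARS2 (0.9936) and PHF11 (0.9935), among 9697 protein-coding genes with a mean of at least 100 normalized counts in both tables. The 12 libraries share the treatment contrast, so these values describe a common pattern over 4 groups and carry no p. OSGIN2, a relative of OSGIN1, had log2 fold changes of 0.70 in SCC15 and 1.38 in SCC25, close to the 0.65 and 1.37 of NFE2L2.

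The wider pathway was taken from a list of 104 further genes in 10 roles, also chosen with earlier results of these data known. Genes on the list can answer to other factors too, and whether NRF2 changed any of them was not tested. In SCC15, 97 were tested, of which 55 were called higher and 14 lower (all genes 30.9% and 30.0%), with a median log2 fold change of 0.55. With equal totals these became 32 higher and 27 lower with a median of 0.05, while 14.6% of all genes were higher and 51.0% lower with a median of -0.50. In SCC25, 97 were tested, 45 were higher and 33 lower (all genes 38.3% and 38.5%), with a median of 0.07, and with equal totals 41 were higher and 48 lower (median -0.13, against 30.3% and 47.6% of all genes and a median of -0.23). Of the 93 genes tested in both lines, 32 rose in each line, 9 fell in each and 14 went opposite ways, against 22.1%, 18.6% and 10.1% of all genes. The counts of a single role below are small and are to be read against these shares.

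**Figure D5:**
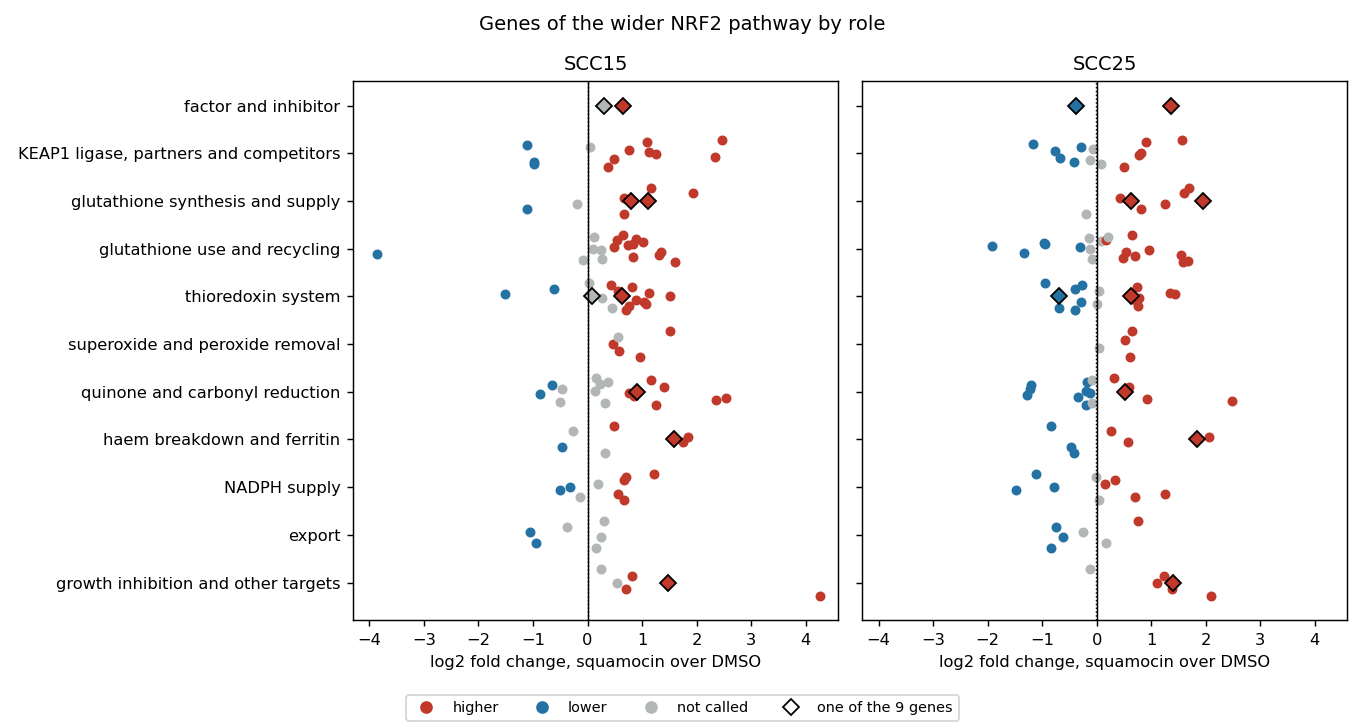
Log2 fold change of squamocin over DMSO (x axis) of the tested genes of the wider pathway by role (rows) in SCC15 and SCC25, red where called higher, blue where called lower and grey where not called, with the 9 genes as diamonds and the median of all genes as a dotted line. Genes of the growth inhibition row that were called lie to the right in both lines, and 7 of the 10 rows below the top one hold more blue points in SCC25 than in SCC15.

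Among 13 genes of the KEAP1 ligase, its partners and competitors, 8 of 12 tested were higher and 3 lower in SCC15, and 5 of 13 were higher and 5 lower in SCC25. Equal totals gave 5 higher and 4 lower, and 5 and 7. SQSTM1, the autophagy receptor p62 that competes for KEAP1, went from 4986, 4793 and 5048 normalized counts to 27311, 26563 and 27747 in SCC15 and from 8884, 8804 and 8884 to 25149, 24163 and 29472 in SCC25. These were rises of 5.50-fold and 2.97-fold, with log2 fold changes of 2.46 and 1.56 (limma adjusted p = 5.5e-06 and 1.8e-10). The small MAF partners did not move as one: in log2 units for SCC15 and then SCC25, the order kept from here on, MAFF rose by 2.35 and 0.78 and MAFG by 1.25 and 0.81, whereas MAFK rose by 1.14 in SCC15 and fell by 0.76 in SCC25 (difference 1.90, limma adjusted p = 1.29e-07). BACH1, the repressor that competes for AREs, rose by 0.37 and 0.50, but stood at -0.13 in SCC15 with equal totals. CUL3, the scaffold of the ligase, fell by 0.98 on the log2 scale in SCC15 and was at -0.13 in SCC25 (adjusted p = 0.0530), where equal totals called it at -0.33. PALB2, a KEAP1-binding repair protein, fell by 1.11 and 1.17.

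Of 6 further genes of glutathione synthesis and supply, SCC15 had 4 higher and 1 lower, and SCC25 had 5 higher and 0 lower. Equal totals gave 2 and 1, and 5 and 1. The 2 chains of the cystine importer rose in both lines, SLC7A11 by 1.16 and 1.70 and SLC3A2 by 1.93 and 1.60, with adjusted p of at most 0.000231, and both kept their calls with equal totals. The larger SLC7A11 response of SCC25 was called (difference -0.54, limma adjusted p = 0.00586), in the same direction as for GCLM. GSS, glutathione synthetase, rose by 0.68 and 0.43, and was at 0.18 in SCC15 with equal totals. CHAC1, which degrades glutathione, rose by 0.67 in SCC15 and was at -0.19 in SCC25 (adjusted p = 0.0911), and stood at 0.18 (not called) and -0.40 (called) with equal totals.

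Of 21 genes that use or recycle glutathione, 11 of 17 tested were higher and 1 lower in SCC15, and 9 of 19 were higher and 5 lower in SCC25. Equal totals gave 6 higher and 5 lower, and 8 and 9. The glutaredoxin GLRX rose alike, by 1.61 and 1.58, while GLRX2 was at -0.09 in SCC15 (called at -0.59 with equal totals) and rose by 1.68 in SCC25 (difference -1.77, limma adjusted p = 4.32e-05). Of the peroxidases, GPX1 rose by 1.31 (1.02 without squamocin replicate 3) and 0.71 and GPX4 by 1.35 and 0.55, while GPX3, the secreted one and less abundant, fell by 3.85 and 1.34 (limma adjusted p = 0.000127 and 2.2e-05). GSR, glutathione reductase, a known NRF2 target, was not called in either line, at 0.09 and -0.13 (adjusted p = 0.420 and 0.0844), but was called lower in both with equal totals, at -0.40 and -0.34.

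Of 15 further genes of the thioredoxin system, 10 were higher and 2 lower in SCC15, against 7 higher and 6 lower of them in SCC25. Equal totals gave 6 and 3, and 7 and 8. TXN, thioredoxin, rose 2.29-fold in SCC15, from 3463, 3674 and 3549 to 6205, 6251 and 11991 normalized counts, with squamocin replicate 3 far above its partners (log2 fold change 1.12, and 0.81 without it), and 2.54-fold in SCC25, from 6563, 6258 and 6303 to 16218, 16393 and 15993. TXNIP, which binds and inhibits thioredoxin, fell by 0.62 and 0.40. PRDX1, a peroxiredoxin that SRXN1 repairs, rose by 0.71 in SCC15 and fell by 0.40 in SCC25 (difference 1.11, limma adjusted p = 0.00063), though it stood at 0.21 with no call in SCC15 under equal totals. PRDX6 rose by 0.89 and 0.70, TXNL1 by 0.82 and 0.74, and SESN2, a stress-induced sestrin, by 1.52 and 0.62. Under equal totals these 3 were called higher in both lines.

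Of the genes that remove superoxide and peroxide, 4 of 5 tested were higher in SCC15 and 3 of 4 in SCC25, with 0 lower in either. Equal totals gave 2 higher and 0 lower, and 3 and 1. CAT, catalase, rose by 0.96 and 0.61, and SOD2, the mitochondrial superoxide dismutase, rose by 1.52 in SCC15 and was not analysed in SCC25. SOD1 rose by 0.65 in SCC25 and was at 0.57 (adjusted p = 0.0634) in SCC15. PON2, a lactonase, rose by 0.47 and 0.52, and was at -0.02 in SCC15 with equal totals.

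The genes of quinone and carbonyl reduction around NQO1 were mixed, with 7 higher and 2 lower of 16 tested in SCC15 and 4 higher and 8 lower of 14 in SCC25. Equal totals gave 6 and 5, and 3 and 10. AKR1C1, an aldo-keto reductase, rose by 2.35 and 2.48, from means of 1602 to 8247 and of 63.9 to 359 normalized counts, and its value is uncertain because near-identical copies of the AKR1C family can share reads. AKR1A1 rose by 1.25 in SCC15 and fell by 0.19 in SCC25. UGDH, which makes UDP-glucuronate, rose by 1.16 and 0.31 (0.11 with no call in SCC25 under equal totals), while EPHX1, microsomal epoxide hydrolase, fell by 0.65 and 1.20.

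Beside HMOX1, 3 of 6 genes of haem breakdown and ferritin were higher and 1 lower in SCC15, while SCC25 had 3 of each. Equal totals gave 2 and 2, and 2 and 3. FTL, the ferritin light chain, went from 25310, 25179 and 24620 normalized counts to 75879, 76165 and 125770 in SCC15 and from 14381, 13830 and 13996 to 57982, 58493 and 59207 in SCC25. These are rises of 3.70-fold and 4.16-fold, with squamocin replicate 3 of SCC15 the highest (log2 fold change 1.84, and 1.60 without it). FTH1, the heavy chain, rose by 1.75 and 0.58 (difference 1.17, limma adjusted p = 0.000175). Both ferritin genes have processed copies in the genome, so their counts are uncertain. SLC48A1, a haem transporter, rose by 0.49 in SCC15, with no call and a value near zero under equal totals, and fell by 0.83 in SCC25. FECH, ferrochelatase, fell by 0.47 and 0.46.

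Of 9 genes of NADPH supply, SCC15 had 5 higher and 2 lower, and SCC25 had 4 higher and 3 lower. Equal totals turned the balance in SCC15 to 1 higher and 4 lower, and gave 3 and 4 in SCC25. TKT, transketolase, stood at 5914, 5878 and 5812 normalized counts in DMSO and at 13018, 13407 and 14420 with squamocin in SCC15, but at 6023, 6378 and 5933 against 2812, 2561 and 3140 in SCC25. The log2 fold changes of 1.21 and -1.11 differed by 2.32 (limma adjusted p = 1.92e-08). ME1, malic enzyme, rose by 0.55 and 1.26, and was at 0.05 in SCC15 with equal totals. MTHFD1 and NNT fell in both, by 0.51 and 1.49 and by 0.32 and 0.78.

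Of the 6 export pumps, SCC15 had 0 higher and 2 lower, and SCC25 had 1 higher and 3 lower. Equal totals gave 0 and 3, and 1 and 4. ABCC1 was at 0.16 (adjusted p = 0.362) in SCC15 and fell by 0.84 in SCC25, ABCC3 was at 0.25 (adjusted p = 0.313) and fell by 0.63, and ABCC5 was at -0.38 (adjusted p = 0.0747) and fell by 0.75. ABCC4 fell by 1.06 in SCC15 and was at -0.26 (adjusted p = 0.0676) in SCC25. With equal totals ABCC5 in SCC15 (-0.87) and ABCC4 in SCC25 (-0.47) were called lower as well. Of the 5 further genes listed beside OSGIN1, 3 were higher in SCC15 and 4 in SCC25, with 0 lower. Equal totals gave 2 higher and 0 lower, and 4 and 1. GDF15, a stress-induced cytokine, rose 20.2-fold in SCC15, from 29.0, 31.6 and 36.7 normalized counts to 565, 543 and 862, and 4.27-fold in SCC25, from 3315, 3307 and 3378 to 14239, 13182 and 15321. TRIM16 rose by 0.81 and 1.24, with a close copy, TRIM16L, that can share its reads, and PIR, pirin, rose by 1.10 in SCC25 and was at 0.55 (adjusted p = 0.0525) in SCC15. Without squamocin replicate 3 of SCC15, 64 of the further pathway genes were called higher and 19 lower in SCC15. That fit called 38.0% of all genes higher and 37.6% lower. Of the further pathway genes named in this text, GLRX2 (-0.30), SOD1 (0.27), ABCC1 (0.33), ABCC3 (0.50), ABCC5 (-0.18), PIR (0.31) and HMOX2 (-0.55) were newly called. Some genes not named were newly called as well.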

How the data were processed

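RNA of SCC15 and SCC25 cells was sequenced after 24 h of squamocin or DMSO, with 3 libraries per group. Per the labels and the study's methods, the authors aligned reads to GRCh38 with HISAT2 2.0.5 and counted them per gene with featureCounts 1.5.0-p3. The deposited values are a signal, the count of reads over a size factor that the authors set for every library within its own line (normalized counts). A header of the SCC25 table calls them FPKM, but all values came out as whole reads (tolerance 0.1 reads) after multiplication by 1 factor per library. The authors' fold-change and p-value columns were not used. From these reads, TPM were computed with GENCODE 44 exon lengths.

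Genes with a mean of at least 10 normalized counts were tested with limma 3.58.1 (R 4.3.3) on log2(normalized count + 1), without a block, two-sided, with Benjamini-Hochberg adjustment over all genes tested and a threshold of 0.05. Fold changes are on that scale and slightly understate low genes. The lines were compared by a contrast over all 12 libraries. The test was checked on simulated data in which few genes changed, evenly in both directions, and no library stood apart. That check does not cover the wide change or the deviating library of these data. Alternatives were pseudocounts of 0.1 and 10, other filters, TMM factors, equal library totals, the recovered reads tested with DESeq2 1.42.0 or edgeR 4.0.16, replicate number as a block, and each library left out in turn. Equal totals changed the split of all calls from 4921 higher and 4773 lower to 2336 and 8179 in SCC15, and from 6335 and 6367 to 5021 and 7896 in SCC25.

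The members and gene lists were chosen with earlier results of these data known. Of each role, up to 4 genes with the largest absolute log2 fold change averaged over the lines (mean of at least 100 in both tables) were named, with a fixed set of genes of defining role (CUL3, BACH1, MAFF, MAFG, SQSTM1, SLC7A11, GSR, TXN, TXNIP, PRDX1, SOD2, CAT, FTL, FTH1, ME1, and 1 that is not reported here), and the 3 genes most correlated with NFE2L2 and with HMOX1. MAFK, HMOX2, GPX3 and the genes that overlap members were added after their values were seen. Where a name had 2 identifiers, the one with more counts was used.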

Additional observations from a re-analysis of the deposited data

Results flagged for a closer look

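The response of 3 of the 9 genes differed between the lines by the direct limma test of the difference, against 52.2% of all genes tested. In log2 units, NFE2L2 rose by 0.65 (SCC15) and 1.37 (SCC25), a difference of -0.73. GCLM rose by 1.11 and 1.96, a difference of -0.85. KEAP1 was at 0.30 in SCC15 and fell by 0.38 in SCC25, a difference of 0.68. With equal library totals the differences were -1.02 for NFE2L2, -1.14 for GCLM and 0.39 for KEAP1, all 3 still called, in a fit that called 54.3% of all genes. The 2 lines differ in origin as well as in response, and with 1 line of each kind these cannot be told apart.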

How the results depend on the processing

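Of the alternatives to the log2 fold changes of the 9 genes, 261 of their values kept direction and side of the threshold, 5 reversed, 2 gained a call and 2 lost it. For the differences between the lines, 137 kept both, 9 reversed and 7 gained a call. In SCC15, equal library totals took NFE2L2 to 0.15 and TXNRD1 to 0.13 (no longer called), KEAP1 to -0.20 and SRXN1 to -0.41, and the other pathway genes to 32 higher and 27 lower. They also turned the differences between the lines of GCLC to -0.11 and of OSGIN1 to -0.21, neither called. Leaving out 1 library at a time gave -0.10 to 0.36 for SRXN1 and 0.17 to 0.39 for KEAP1 in SCC15, and differences between the lines of -0.023 to 0.036 for TXNRD1 and -0.10 to 0.22 for OSGIN1. It gave 3 to 6 members that differed between the lines, with 6 without squamocin replicate 3 of SCC15, where 65.9% of all genes differed against 52.2% with it. NQO1 differed without squamocin replicate 1 of SCC15 (0.50), SRXN1 without DMSO replicate 1 of SCC15 (1.01), GCLC without squamocin replicate 3 of SCC25 (0.25) and HMOX1 with equal totals (-0.56). The count of calls over all genes moved by less than 1.5 times under every other setting in a line. The low counts of SRXN1 in SCC15, 88 reads at the fewest, limit what could be seen there.

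The replicate numbers did not pair the libraries: deviations of same-numbered libraries had correlations from -0.051 to 0.008. With the number as a block, the members called were the same 7 in SCC15 (NFE2L2 at 0.65) and 9 in SCC25, with 4665 higher and 4451 lower genes in SCC15.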
